A study of Mus musculus with 2 samples.

Results

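Mir191, Mir425, Mir330, Mir324 and Mir22 are 5 microRNA (miRNA) genes that were chosen by name for their abundance in these libraries, out of 2202 miRNA genes counted. All 5 were found by symbol in the annotation, and all 5 had at least 10 counts in each library, as did 392 genes in all, which are called measured. The libraries are small-RNA sequencing of total RNA from the left cerebral cortex of 2 male mice at 25 days of age, 1 library for each mouse, labelled biological replicates 1 and 2. The strain is B6CASTF1/J, a first-generation cross that carries a C57BL/6J and a CAST/EiJ chromosome set, and the labels name no treatment and no control group. The data therefore form 1 group: they show how abundant each gene was and how far the libraries differed, and no condition was compared.

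A miRNA is cut from a hairpin that forms in a longer transcript, first in the nucleus and then in the cytoplasm, and one arm of the hairpin is loaded onto an Argonaute protein. Bases 2 to 8 of the loaded arm, the seed, pair with target mRNAs and lower their translation and stability. In the cerebral cortex such RNAs tune synaptic and developmental genes. miR-324-5p is known to act on the mRNA of the potassium channel Kv4.2 (Kcnd2) in neurons, miR-22 is best known from heart muscle growth and as a growth-restraining miRNA in tumours, and miR-191 is often used as a reference for normalising small-RNA assays.

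The mature arms are shown first because a seed defines which mRNAs a miRNA can pair with. The sequences are from RefSeq (GRCm38.p6, the same assembly as mm10), written 5′ to 3′ with the seed in capitals. All 5 genes were matched in that table.
miR-191-5p: cAACGGAAucccaaaagcagcug
miR-191-3p: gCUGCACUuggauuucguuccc
miR-425-5p: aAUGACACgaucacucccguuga
miR-425-3p: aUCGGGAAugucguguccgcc
miR-330-5p: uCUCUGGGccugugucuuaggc
miR-330-3p: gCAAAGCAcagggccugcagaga
miR-324-5p: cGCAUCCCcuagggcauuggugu
miR-324-3p: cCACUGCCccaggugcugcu
miR-22-5p: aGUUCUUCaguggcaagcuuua
miR-22-3p: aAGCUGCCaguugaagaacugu

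The 10 arms were 20 to 23 bases long and carried 10 different seeds, so no 2 of them form a seed family. The files count reads for a whole hairpin gene, so the counts below do not say which arm they came from. GC content ran from 40.9% in miR-22-5p to 70.0% in miR-324-3p. On either strand, no arm shared a run of more than 12 bases with the hairpin of another gene in the RefSeq table. That longest run was between miR-330-3p and Mir493. For comparison, 66 of the 355 measured genes with a mature sequence in the table (18.6%) held a run of 18 or more bases of another hairpin, and none of the 5 genes was among them. Reads that match several places, which the gene counts leave out, were 48.6% (replicate 1) and 52.8% (replicate 2) of those mapped. The comparison covers the 1005 genes with a hairpin in the RefSeq table, not the rest of the genome. It leaves out Gm24083, an annotated miRNA gene that covers Mir191, and so both its arms, on the other strand.

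Outside the 5 genes, 3 of the 1738 mature sequences in the table carried one of the 10 seeds. They are shown with the seed in capitals.
miR-326-3p, which shares the seed of miR-330-5p: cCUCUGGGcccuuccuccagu
miR-489-3p, which shares the seed of miR-425-5p: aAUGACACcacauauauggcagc
miR-6240, which shares the seed of miR-330-3p: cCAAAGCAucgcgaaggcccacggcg

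Of these, Mir326 was the most abundant, with 1288 counts in replicate 1 and 4190 in replicate 2. That is 539 and 942 counts per 1000000 own-strand miRNA counts (CPM), the unit of level used throughout. Mir330 exceeded Mir326 by 18.7 times in replicate 1 (17.7 to 19.8, the exact 95% Clopper-Pearson limits) and by 12.2 times in replicate 2 (11.8 to 12.6). Both genes count both of their arms, so this ratio does not compare the 2 arms that share the seed. Mir489 had 0 counts in both libraries, where 3 counts would be 1.26 CPM in replicate 1 and 0.675 CPM in replicate 2. Mir6240 had 11 and 22 counts. The seeds of miR-191, miR-324 and miR-22, and that of miR-425-3p, were found in no other mature sequence of the table.

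The 5 genes lie at 4 places in the genome, all on the plus strand (mm10, GENCODE M21). Mir191 (ENSMUSG00000105497.1) spans 74 bases at chr9:108568319-108568392, and Mir425 (ENSMUSG00000065579.1) spans 85 bases at chr9:108568777-108568861, with 384 bases between them. Both lie within a single-exon transcript of the long non-coding RNA gene 4833445I07Rik, of which another transcript has Mir191 in an intron, between the protein-coding genes Ndufaf3, a complex I assembly factor on the minus strand, and Dalrd3 on the plus strand. A further annotated miRNA gene, Gm24083, covers Mir191 on the minus strand (chr9:108568295-108568414). Mir324 (ENSMUSG00000065534.1; chr11:70012043-70012131) lies in the 3′ UTR of Dvl2, which encodes a Dishevelled protein of Wnt signalling, on the same strand. It also lies in an intron of Acadvl, a fatty acid oxidation gene on the opposite strand. Mir22 (ENSMUSG00000065529.1; chr11:75463716-75463810) lies in an exon of its non-coding host Mir22hg. That exon is also part of a non-coding transcript of Tlcd2.

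Mir330 (ENSMUSG00000065543.1; chr7:19181465-19181562) lies in Eml2, which encodes a microtubule-associated protein, on the same strand. In 6 of the 7 annotated Eml2 transcripts that span it, the hairpin is intronic. The seventh, a transcript without a coding frame, has an exon that covers 84 of the 98 bases and ends 1 base after miR-330-3p. The hairpin is shown because its mature arms, in capitals, both fall within that exon while the last 14 bases of the hairpin lie beyond it.
Mir330 hairpin: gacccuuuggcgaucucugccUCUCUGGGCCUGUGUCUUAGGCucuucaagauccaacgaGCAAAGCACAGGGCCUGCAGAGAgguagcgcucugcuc

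Own-strand counts over all miRNA genes came to 2388379 in replicate 1 and 4447390 in replicate 2, a 1.86-fold difference in depth, and 31.6% and 18.2% of reads were unmapped. Nothing in the labels gives a batch. The tissue label was checked against markers: neuronal genes held 8.78% and 7.51% of the counts, led by the activity-regulated Mir132, while the liver miRNA Mir122 stood at 54.0 and 57.6 CPM. The 3 neuronal Mir124a copies summed to 10 and 18 counts, a level that is uncertain because reads with several matches were not counted. All intervals are for counting error alone. PCR copies of a molecule may have been counted as separate reads, which would make the intervals too narrow. Levels were compared per read and not per length, on the assumption that a read is a whole mature miRNA, which was not checked.

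The 5 genes together took 3.70% of the counts in replicate 1 (95% exact interval 3.68 to 3.73%) and 4.85% in replicate 2 (4.83 to 4.87%), a mean of 4.28% ± 0.809 (SD, n = 2). Mir22 accounted for the difference between these sums. Without it, a choice made after its values were seen, the other 4 genes held 3.163% and 3.159%. By mean level the order was Mir22, Mir330, Mir191, Mir324 and Mir425, at ranks 20, 21, 23, 25 and 111 of all genes. The levels were used to choose the genes, so they are described without a test.

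Mir191 had 26211 counts in replicate 1 and 41776 in replicate 2. Its level was 10974 CPM (95% exact interval 10843 to 11107) and 9393 CPM (9304 to 9483), with a mean of 10184 ± 1118 CPM (SD, n = 2). It was the highest of the 5 genes in replicate 1, at rank 19, and the fourth of the 5 in replicate 2, at rank 27.

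Mir425, its neighbour, had 2151 and 3755 counts. Its level was 901 CPM (863 to 939) in replicate 1 and 844 CPM (818 to 872) in replicate 2, a mean of 872 ± 39.8 CPM (SD, n = 2). Mir425 was the lowest of the 5 genes in both libraries, at ranks 106 and 114, and its range did not overlap that of any of the other 4.

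Mir330 had 24062 and 50990 counts, or 10075 CPM (9948 to 10202) and 11465 CPM (11366 to 11565), a mean of 10770 ± 983 CPM (SD, n = 2). It kept nearly the same rank in the libraries, 23 and 22. Mir324 had 23128 and 43950 counts, or 9684 CPM (9560 to 9809) and 9882 CPM (9790 to 9975), a mean of 9783 ± 140 CPM (SD, n = 2). It stood at rank 24 in both, and its coefficient of variation of 1.44% was the smallest of the 5 at this scaling. With totals that left out the 10 most abundant genes, Mir330 differed less between the libraries than Mir324. Their log2 ratios of replicate 2 over replicate 1 were then 0.0036 and −0.15.

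Mir22 had 12923 counts in replicate 1 and 75139 in replicate 2. Its level was 5411 CPM (5318 to 5505) and 16895 CPM (16776 to 17015), a mean of 11153 ± 8121 CPM (SD, n = 2). Replicate 2 was the high one, where Mir22 led the 5 genes at rank 14, while in replicate 1 it was the fourth of the 5 at rank 37. The coefficient of variation of Mir22 was 72.8%.

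Neighbours in the order Mir22, Mir330, Mir191 and Mir324 were not separated by the libraries. The means of Mir22 and Mir330 differed by 383 CPM, those of Mir330 and Mir191 by 586 CPM, and those of Mir191 and Mir324 by 401 CPM, and in each case the ranges of the 2 libraries overlapped. Only the step from Mir324 down to Mir425, 8910 CPM, was larger than the spread between libraries.

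**Figure D1:**
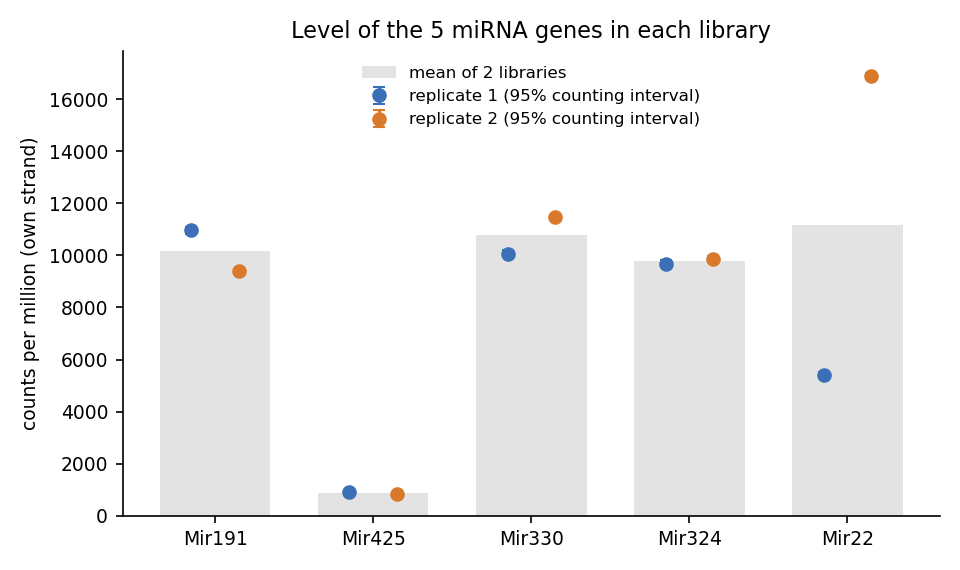
Own-strand level (CPM, linear axis from 0) of each gene. Grey bars are the mean of the 2 libraries, and points are the libraries, with 95% counting intervals that are mostly smaller than the points. Mir191, Mir330 and Mir324 lie between 9393 and 11465 CPM in both libraries, Mir425 lies below 1000 CPM, and the Mir22 points lie at 5411 and 16895 CPM.

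Mir191 and Mir425 sit side by side on one annotated transcript and differed in count by about an order of magnitude. Mir191 exceeded Mir425 by 12.2 times in replicate 1 (95% exact interval 11.7 to 12.7) and by 11.1 times in replicate 2 (10.8 to 11.5), a mean of 11.7 ± 0.750 (SD, n = 2). This ratio needs no scaling between libraries. Among measured genes, 105 pairs of neighbours lay on the same strand within 10000 bases of each other, this pair included. Their median fold within a pair was 6.92, and 39 of the other pairs differed more widely than Mir191 and Mir425. Reads with several matches were not counted, which can lower genes with near-identical copies and alter the fold of their pairs. Neither Mir191 nor Mir425 shared a run of 18 or more bases with another hairpin in the RefSeq table. The place of this pair among the 105 is therefore uncertain.

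The ratio of Mir191 to Mir425 fell from replicate 1 to replicate 2 by 0.13 on the log2 scale, and the counting intervals of the 2 ratios did not overlap. Across all 105 pairs the median change of the ratio between libraries was 1.48-fold. The ratio of 19 other pairs moved less than that of Mir191 to Mir425, and the ratio of 85 moved more. These pairs are not independent, since genes of a larger cluster enter several of them.

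**Figure D2:**
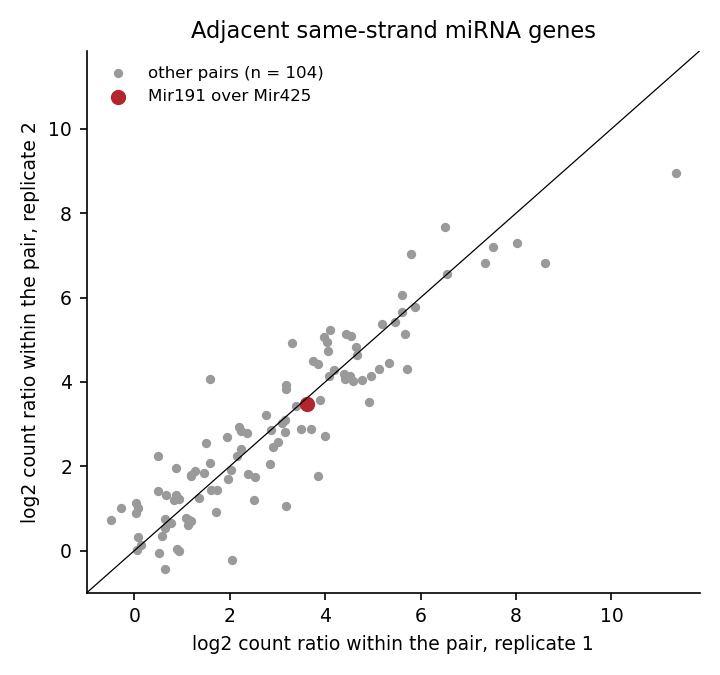
Log2 ratio of counts within each pair of neighbouring same-strand measured genes, replicate 1 on the x axis and replicate 2 on the y axis. Each ratio is turned so that its mean over both libraries is positive, and the line marks equal ratios. Mir191 over Mir425 (red) lies close to the line, at 12.2 and 11.1 times, among 104 other pairs (grey).

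Mir22 was the gene of the 5 that set the libraries apart. It was 3.12 times higher in replicate 2 (95% exact interval 3.06 to 3.18), a log2 ratio of 1.64 with a counting SE of 0.014. Mir330 was 1.14 times higher (1.12 to 1.16; log2 ratio 0.19). Mir191 was lower in replicate 2 at a log2 ratio of −0.22, or 1.17 times higher in replicate 1 (1.15 to 1.19), and Mir425 was lower at −0.093, or 1.07 times higher in replicate 1 (1.01 to 1.13). Mir324 had a log2 ratio of 0.029 (1.02 times, 1.00 to 1.04).

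The exact binomial test, conditional on the summed count of a gene and two-sided, was adjusted by Benjamini-Hochberg over all 392 measured genes at 0.05. All 5 genes passed it: Mir22 and Mir330 higher in replicate 2, Mir191 and Mir425 lower, and Mir324 in a direction that depended on the scaling. The background share was 56.9%: 223 measured genes passed, 134 of them higher (34.2%) and 89 lower (22.7%). At this depth the test passes small differences: of the 106 genes with a mean of at least 1000 CPM, 98 passed (92.5%). The adjusted p was 0.023 for Mir324 and 0.031 for Mir425, both from the exact binomial test. Mir324 passed in the other direction with TMM scaling (log2 ratio −0.029) and with DESeq2 size factors (−0.037), against 0.029 here. When totals left out the 10 most abundant genes, the median of measured genes moved by −0.18, the split of calls became 98 higher and 133 lower, and Mir330 no longer passed (log2 ratio 0.0036). Mir425 did not pass when both strands were counted together (adjusted p = 0.127, exact binomial test). Its own count changed by only 1 read, in replicate 2. The library totals changed too, since genes such as Mir191 count 0 there, and the median log2 ratio of tested genes moved by 0.024.

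The binomial test covers counting error and compares these 2 libraries, not conditions. When edgeR's exact test allowed for the variation of genes between the pair of mice (biological coefficient of variation 0.311), none of the 5 genes passed: Mir22 had an unadjusted p of 0.013 and an adjusted p of 0.551, and the other 4 had an adjusted p of 1. That test takes its dispersion from the same pair of libraries, so the difference it tests is already part of its variance. A gene that did not pass it cannot be called unchanged. It passed 3 of 392 genes (19 at an unadjusted p under 0.05).

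Among measured genes the median size of the log2 ratio was 0.33, or 1.26-fold. Mir22 ranked 12 of 392 in size, and 7 genes had a higher log2 ratio. Among the 106 genes with a mean of at least 1000 CPM it ranked 4. The other 4 genes lay below the median size, at ranks 253 (Mir191), 267 (Mir330), 327 (Mir425) and 377 (Mir324) of 392.

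**Figure D3:**
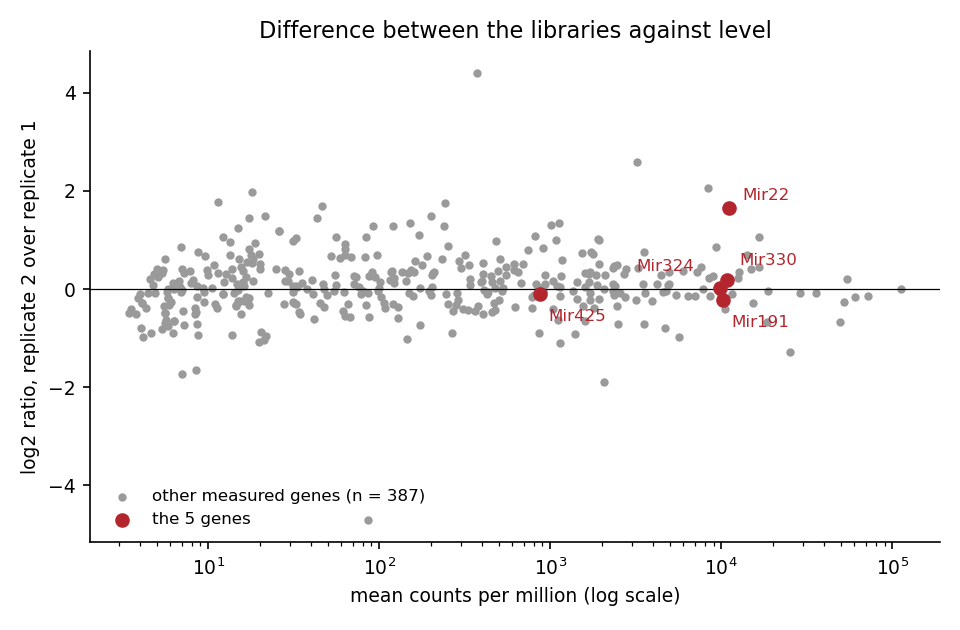
Log2 ratio of replicate 2 over replicate 1 (y axis) against mean level in CPM (x axis, log scale) for the 392 measured genes. The 5 genes are red and the other 387 are grey. Mir22 stands at 1.64, while the other 4 lie between −0.22 and 0.19.

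The change of Mir22 also showed in its ratio to each of the other genes, which does not depend on library totals. Mir22 stood at 0.493 of Mir191 in replicate 1 and at 1.80 of it in replicate 2. Against Mir330 it stood at 0.537 and 1.47, and against Mir324 at 0.559 and 1.71. The ratio of Mir330 to Mir324 moved far less, from 1.04 (1.02 to 1.06) to 1.16 (1.15 to 1.18).

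Marker lists of other cells were read beside the Mir22 difference, and their part in it was not tested. The 3 endothelial and mural genes summed to 16755 and 28009 CPM in replicates 1 and 2: the endothelial Mir126a was higher in replicate 2 (log2 ratio 1.06), and the smooth-muscle genes Mir143 and Mir145a were lower (−0.11 and −0.22). Of the 9 heart and skeletal muscle genes, which stand for tissues rich in miR-22, Mir1a-1, Mir133a-1, Mir133a-2 and Mir133b were at 0 in both libraries. Several of these have near-identical copies, whose reads with several matches were not counted, so zeros in this list are uncertain. Mir206 of the same list had 32 and 99 counts and passed as higher in replicate 2 (log2 ratio 0.69, adjusted p = 0.024 in the exact binomial test), though not when totals left out the 10 most abundant genes. Mir499 (28 and 58 counts) and Mir208a (17 and 16 counts) were measured and did not pass. Mir208b (5 and 22 counts) and Mir1a-2 (1 and 0 counts) did not reach 10 counts in each library and were not tested. That list summed to 34.8 and 43.8 CPM. The 10 neuronal genes summed to 87809 and 75131 CPM. Mir132 was the largest part of both sums, at 60392 and 37793 CPM. Past the binomial test, 5 of 7 measured neuronal genes were higher and 2, Mir132 among them, were lower. The background was 34.2% higher and 22.7% lower. Most of these genes are abundant, and of the 106 genes with a mean of at least 1000 CPM, 54 passed as higher and 44 as lower. Oligodendrocyte genes (2) summed to 2718 and 3551 CPM, and microglial and leukocyte genes (4) to 1513 and 1639 CPM. Red-cell genes (3) summed to 134 and 144 CPM, and the choroid plexus gene Mir204 stood at 507 and 718 CPM. Members of these lists differed in log2 ratio: Mir219a-2 0.72 and Mir338 −0.034 in oligodendrocytes, and Mir144 1.18, Mir451a −0.083 and Mir486 −0.29 in red cells. Among microglial and leukocyte genes, Mir150 held 1358 and 1496 CPM of the sums (log2 ratio 0.14). Mir142, Mir223 and Mir155 had log2 ratios of 0.049, 0.50 and −0.44.

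Measured miRNA genes within 1000000 bases of the 5 were set beside them. Mir132 and Mir212, activity-regulated genes 289968 and 290237 bases from Mir22, had log2 ratios of −0.68 and −0.15, where Mir22 had 1.64. Near Mir324, Mir195a and Mir497 lie 222910 and 222585 bases away and had log2 ratios of 2.58 and 0.83, where Mir324 had 0.029. The low-count genes Mir1934 and Mir7115, 348917 and 426123 bases from Mir324, did not pass the binomial test (adjusted p = 0.794 and 0.895). Mir330 had no measured miRNA gene within that distance, and Mir191 and Mir425 had only each other.

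The genes most like each of the 5 were taken by the distance between log2(CPM + 1) levels over the 2 libraries. Mir191 was nearest to Mir541 (distance 0.112), Mir382 (0.144) and Mir324 (0.195). Mir324 was nearest to Mir541 (0.085), Mir191 and Mir330 (0.222), and Mir330 was nearest to Mir324, Mir652 (0.243) and Mir541 (0.260). Mir425 was nearest to Mir1249 (0.083), Mir673 (0.122) and Mir532 (0.158). The nearest to Mir22 were farther off: Mir29a (0.571; 6554 and 11948 CPM), Mir99b (0.808; 3236 and 13526 CPM) and Mir23a (0.982; 6408 and 8737 CPM). By mean level the genes just above and below were Mir652 and Mir330 for Mir22, Mir22 and Mir382 for Mir330, Mir382 and Mir541 for Mir191, Mir541 and Mir29a for Mir324, and Mir1249 and Mir501 for Mir425. With 2 libraries, likeness rests on 2 points for each gene.

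Mir191 and Mir425 belong to a list of 13 miRNA genes often used to normalise small-RNA assays, so that list was described too. All 13 were measured, and 7 passed as higher and 6 as lower in replicate 2, against the background of 34.2% and 22.7%. That background holds many low-count genes, and abundant genes passed more often. When the count minimum was raised to 100, 194 of 242 genes passed, 115 as higher and 79 as lower. From the list, 11 passed at that minimum, 7 as higher and 4 as lower. Where the mean reached 1000 CPM, 98 of 106 genes passed (92.5%). Some genes of the list have near-identical copies, whose reads with several matches were not counted. The calls of those genes and the medians of the list are therefore uncertain. The median log2 ratio of the 13 was 0.11, against 0.060 over all measured genes. Without Mir191 and Mir425, 7 of the other 11 passed as higher and 4 as lower, and their median was 0.32. After Mir191, the most abundant were Mir151 (8570 ± 547 CPM, log2 ratio −0.13), Mir361 (4198 ± 233 CPM, 0.11) and Mir93 (1695 ± 191 CPM, −0.23; SD, n = 2). Mir361 was lower (−0.070) when totals left out the 10 most abundant genes. In edgeR's exact test 0 of the 13 passed, and 0 had an unadjusted p under 0.05, with the same limit from its shared dispersion.

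Reads on the opposite strand were nearly absent from the 5 genes. Mir425 had 1 such read in replicate 2, and the others had 0 in both libraries, which allows a share of up to 0.0232% for Mir22 in replicate 1, the widest limit among those 4. The column that counts both strands together equalled the own-strand count for Mir330, Mir324 and Mir22, and exceeded it by that 1 read for Mir425. For Mir191 it was 0 in both libraries, although the own strand held 26211 and 41776 reads. The annotated gene Gm24083 covers Mir191 on the other strand, had 0 reads on its own strand, and listed the same 26211 and 41776 reads as opposite-strand reads. All 27 measured genes with an annotated miRNA gene on the other strand had a both-strand count below the sum of their strands, and 23 of the 392 measured genes had a both-strand count of 0 in both libraries.

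**Figure D4:**
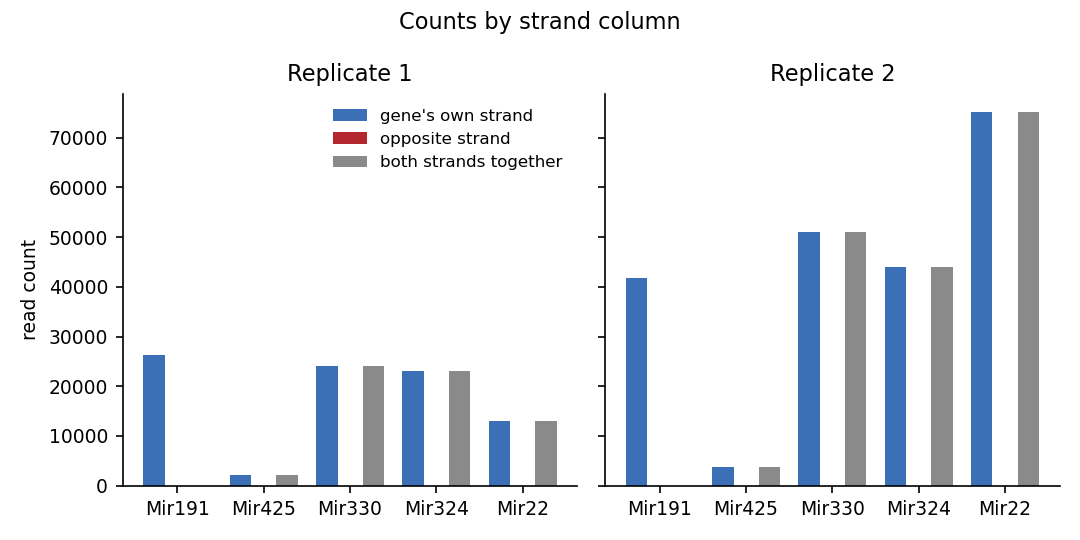
Read counts (y axis, from 0) of the 5 genes in replicate 1 (left) and replicate 2 (right) by counting column: the gene's own strand (blue), the opposite strand (red) and both strands together (grey). Own-strand and both-strand bars match for Mir425, Mir330, Mir324 and Mir22 to within 1 read, and the both-strand bar of Mir191 is 0.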

How the data were processed

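The authors deposited raw counts of reads for each miRNA gene, made on mm10 with GENCODE M21, per the readme files. The aligner and counting tool were not given in the sources used here. Without a header, the meaning of the 3 columns was taken from their values: the first joins both strands, the second holds the strand of the gene, which was used, and the third holds the other strand. Rows that name no gene (unmapped, several matches, no feature, ambiguous) held 69.9% and 67.0% of reads in replicates 1 and 2 and stayed out of totals and tests. All 2202 gene IDs matched GENCODE M21. The reference is C57BL/6J, and an effect of CAST/EiJ alleles on read matching was not tested.

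CPM used own-strand totals, and log2 ratios a pseudocount of 1. A count of 10 is 4.19 and 2.25 CPM. A quasi-likelihood fit in edgeR needs a contrast between groups, which 1 group does not give, so each measured gene (a minimum of 10 counts per library) had a two-sided exact binomial test of its counts given both totals, adjusted by Benjamini-Hochberg at 0.05. The labels give each library its own animal, and with 1 library per mouse the p-values cannot tell mouse from library preparation. In simulated counts with counting error alone (393 genes tested), 72.9% of 1.5-fold and 84.4% of 2-fold changes were called, and 2.49% of unchanged genes. The simulation scaled by totals of the unchanged genes, which are not known in the real data. These shares therefore do not cover calls that arise from the scaling. Alternatives were both strands, TMM (edgeR 4.0.16), DESeq2 1.42.0 size factors, totals without the top 10 genes, count minimums of 1 and 100, a pseudocount of 0.1, levels per base, and edgeR's exact test. Software was matplotlib 3.10.9, NumPy 2.4.6, Python 3.11.15, R 4.3.3, SciPy 1.17.1 and pandas 2.3.3.

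The genes, lists and tests were chosen with earlier results of these data known. Genes named besides the 5 are their neighbours in mean level, the 3 most alike by level in both libraries, measured genes within 1000000 bases, genes sharing a seed, the 4 most abundant reference miRNAs and cell type markers. Gm24083 and Mir493 are named outside this rule, chosen once their values were known.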

Additional observations from a re-analysis of the deposited data

Results flagged for a closer look

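The opposite-strand column, which the levels do not use, held 26211 reads for Gm24083 in replicate 1 and 41776 in replicate 2, above the limit of 3 counts. These equal the own-strand counts of Mir191, which Gm24083 covers on the other strand.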

How the results depend on the processing

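No paired analysis was possible because the libraries form 1 group. TMM and DESeq2 scaling moved none of the 5 mean levels beyond the spread between libraries. This is no check of the levels, because such scaling raises 1 library and lowers the other, so their mean can hardly move. Leaving out either library gave 9393 to 10974 CPM for Mir191, 844 to 901 for Mir425, 10075 to 11465 for Mir330, 9684 to 9882 for Mir324, 5411 to 16895 for Mir22 and a ratio of 11.1 to 12.2. Totals without the 10 most abundant genes raised the levels of Mir191, Mir425, Mir330, Mir324 and Mir22 to 20894, 1785, 21899, 19960 and 22028 CPM, since the totals are smaller. Counting both strands gave 0 for Mir191 and for its ratio to Mir425. It gave 946 CPM for Mir425 and 10608 CPM for Mir324, since the both-strand totals are smaller. Per base of gene length, the order changed to Mir191 (11014 per 1000000), Mir22 (9374), Mir324 (8794), Mir330 (8790) and Mir425 (821). The ratio of Mir191 to Mir425 was then 13.4. The log2 ratio of Mir324 reversed to −0.029 with TMM, −0.037 with DESeq2 and −0.15 without the top 10 genes. Without the top 10, Mir138-1 (−0.072), Mir150 (−0.043), Mir361 (−0.070) and Mir673 (−0.13) also reversed. The count of genes past the test stayed within 1.5 times of 223 except with edgeR's exact test. That test passed 3 genes and 0 of the reference list (0 at an unadjusted p under 0.05). The share past the binomial test depended on the count minimum, which changed the number tested. It was 232 of 613 genes at a minimum of 1 and 194 of 242 at 100, against 223 of 392 at 10. Depth limits the low genes: 3 counts are 1.26 and 0.675 CPM.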
